A study of Sus scrofa domesticus with 6 samples.

Results

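Fibroblasts of the transplanted pig lung were picked out of the single library that held CD45-negative graft cells, where 252 of 15053 cells with 500 or more unique molecular identifiers (UMIs, each counting 1 captured RNA molecule) met the rule, which is 1.67% of that library. Over the 6 libraries of the series, 41545 cells reached 500 UMIs. A member had 5 or more UMIs of the fibroblast genes DCN, COL1A2 and COL3A1 together, under 3% of its UMIs from SFTPC, the surfactant gene of alveolar type 2 (AT2) cells, and under 3 UMIs of the smooth muscle genes MYH11 and ACTA2. Members were thus chosen by their measured UMIs, so the levels of those 6 genes describe the choice of cells and no test of them is used. LIF and CCL2 had been proposed as markers of these cells from earlier results of the same data and are likewise given as values only.

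The graft cells came from domestic pigs that received a single-lung allograft, stored cold for 24 hours and reperfused for 8 hours, and were sorted as CD45-negative viable cells from 1 specimen. A further 2 libraries held CD45-positive cells sorted from grafts treated alike. The 3 control libraries were whole, unsorted suspensions of right lungs of donors, which were perfused and never transplanted. Sorting was applied to graft cells and to no control cells, so the effect of sorting and that of cold storage with reperfusion cannot be told apart here, and the graft is represented by 1 library.

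Lung fibroblasts build and repair the collagen-rich scaffold around vessels, airways and air spaces. Adventitial fibroblasts, marked by PI16, surround vessels and airways, while alveolar fibroblasts lie in the septa between air spaces. When tissue is injured, fibroblasts sense interleukin 1 and tumour necrosis factor through the transcription factor NF-kB and release cytokines of the interleukin 6 family, chemokines and hyaluronan. LIF and IL6, both of that family, act on receptors that share the subunit gp130, the product of IL6ST, whereas CCL2 attracts monocytes.

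The 252 graft fibroblasts held 523067 UMIs, with a median of 1397.5 UMIs and 672.5 genes per cell. The same rule gave 272, 1126 and 1483 fibroblasts in control replicates 1, 2 and 3, with medians of 3902, 3546 and 3900 UMIs per cell. Levels are given in CPM, a gene's count scaled to the same total for every sum, where the total takes in all UMIs of the fibroblasts of a library. Sums were compared by the quasi-likelihood test of edgeR, adjusted by the Benjamini-Hochberg method at a threshold of 0.05, in which the single graft library was assumed to vary as the controls do. Fold changes are log2 values, graft over control. After the ± sign stands an approximate standard error, the absolute fold change divided by the square root of the test's F statistic. It holds no spread measured among grafts. Totals over all genes tested take in rule genes such as COL1A2, whose own test results are not used. The labels do not state that the control libraries came from separate donors, so the p-values may measure technical spread and cover only the spread between these samples. Of 13992 genes tested, 1826 (13.1%) were called higher in graft fibroblasts and 1896 (13.6%) lower, while the median over all genes was -0.49. DESeq2 called 1550 higher and 738 lower. The graft sum lay outside the range of the 3 control sums for 86.9% of genes tested. A graft value above or below every control is therefore usual here and is given as a description only. Counts within the graft library carry exact Poisson intervals and shares of cells carry exact binomial intervals, which cover counting error only, and the limit given for a share of 0 is 3 counts of the total.

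The fibroblast label held against some markers that the rule did not use. COL1A1, LUM and FBLN1 had 50 CPM or more and at least 4 times the level of every other structural class of the graft. COL6A1, COL6A3, PDGFRA, FBN1 and MFAP4 did not meet both limits. All 13 fibroblast markers listed were detected. That list holds the rule genes DCN, COL1A2 and COL3A1 and the proposed markers LIF and CCL2, whose detection is no check of the label. COL1A1, a fibrillar collagen chain, was at 2782 CPM in the graft fibroblasts and 518 CPM in mural, 15.8 in endothelial, 23.3 in AT2 and 7.72 in other epithelial cells. Endothelial and other epithelial cells were gated to under 5 UMIs of the rule genes, so low collagen levels there were in part set by the gate. LUM, the collagen-binding proteoglycan lumican, was at 122 CPM and 138 times the level of the highest other class (95% counting interval 82.7 to 242). PDGFRA, the platelet-derived growth factor receptor of fibroblasts, was at 191 CPM and 1.47 times the level of the highest other class (95% counting interval 1.05 to 2.07). Of the 14 mural markers 11 were detected, and they summed to 1149 CPM in graft fibroblasts, with the pericyte genes RGS5, KCNJ8 and HIGD1B at 0 UMIs, against 11362 CPM in mural cells of the graft and 696 to 915 CPM in control fibroblasts. That list holds MYH11 and ACTA2, which the rule limited in each cell, so its sum is in part set by the rule. Of the 7 mesothelial markers listed in the files 3 were detected, with UPK3B, CALB2, KLK11 and BNC1 at 0, and they summed to 336 CPM, against 36.5 CPM in mural cells and 27.8 to 122 CPM in control fibroblasts. HAS1, which is on the mesothelial list as well as on the hyaluronan list, gave 174 of those UMIs, and WT1 and UPK1B gave 1 each. In a clustering of the graft library, 194 of the 252 members fell in 1 cluster of 377 cells led by MFAP5, DPT and DCN, and 44 fell in a cluster in which mural cells were the most frequent class. Markers of another class were carried by 26 members, of which 12 had immune, 4 endothelial and 11 epithelial ones.

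The rule genes are given as values that describe the cells chosen, since the cut at 5 UMIs acted on cells of lower depth in the graft than in the controls. Graft fibroblasts had a median of 13 UMIs of DCN, COL1A2 and COL3A1 per cell, against 118, 124 and 159 in the control libraries. DCN, the collagen-binding proteoglycan decorin, stood at 4435 CPM in graft fibroblasts, against 13232, 13545 and 12737 CPM in control fibroblasts. COL1A2 stood at 1711 CPM in graft fibroblasts, against 8479.8, 9611 and 10874 CPM in control fibroblasts. COL3A1 stood at 6686 CPM in graft fibroblasts, against 13303, 13523 and 17640.1 CPM in control fibroblasts. The graft value was the lowest of the 4 for each gene, and nothing further was drawn from this.

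Cells just inside and just outside the rule showed how the values changed at its edges. The 28 members with exactly 5 UMIs of the rule genes had 12665 CPM of CCL2 and 447 CPM of IL6. The 38 cells with 4 such UMIs had 4968 CPM of CCL2 and 388 CPM of IL6. The 51 cells left out for SFTPC alone had 10127 CPM of CCL2 and 326 CPM of IL6, and the 124 left out for smooth muscle genes alone had 8861 CPM and 286 CPM. Over all members CCL2 was at 20192 CPM and IL6 at 3118 CPM.

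RNA of other cells was present in the fibroblast barcodes of the graft. SFTPC was at 6431 CPM in members, close to the 6799 CPM of mural, 7117 CPM of endothelial and 6607 CPM of other epithelial cells, and far under the 119595 CPM of AT2 cells. It was at 10.8, 9.41 and 4.01 CPM in control fibroblasts. An SFTPC UMI was seen in 251 of 252 members, so nearly every fibroblast barcode held AT2 RNA. SCGB1A1, the secretoglobin of club cells, was at 15566 CPM in members, but 1 member held 4847 of its 8142 UMIs. AT2 RNA scaled to the SFTPC level of the members, 5.38% of the AT2 profile, would give 0.256% of the LIF, 0.0476% of the IL6, 1.59% of the CCL2 and 0.0922% of the HAS1 measured, but 7.28% of the CXCL2 and 18.0% of the CSF3. Over the whole lists, 9 of the 10 AT2 markers listed in the files were detected and summed to 7911 CPM, against 36.3 to 47.6 CPM in the controls, with ETV5 at 0. Club cell markers summed to 18401 CPM with CYP2F1 at 0, against 3.86 to 26.6 CPM in the controls. Pan-epithelial markers, all 12 detected, summed to 1677 CPM, against 69.2 to 182 CPM. Markers of alveolar type 1 cells, all 9 listed in the files detected, summed to 2229 CPM, against 220.3 to 299.7 CPM, and ciliated markers to 136 CPM with DNAI1 at 0, against 101 to 125 CPM. The sum in graft members was above every control on each of these epithelial lists. For the alveolar type 1 list it was also above the other structural classes of the graft. Those were at 1055 CPM in mural, 1081 in endothelial, 1735 in AT2 and 1709 in other epithelial cells. Which cells the RNA of that list came from was not tested. Immune markers summed to 1346 CPM with CD3D, MS4A1 and NKG7 at 0, against 1901 to 2946 CPM. Blood endothelial markers summed to 149 CPM with CA4 at 0, against 70.9 to 74.7 CPM. Lymphatic markers summed to 2816 CPM with LYVE1 and MMRN1 at 0, against 202 to 229 CPM, and erythroid markers to 985 CPM, against 58.7 to 552 CPM. The lymphatic list shares PDPN with the alveolar type 1 list and holds TFF3, a leading gene of a cluster of other epithelial cells. It summed to 4002 CPM in other epithelial and 5232 CPM in endothelial cells of the graft, so it does not measure lymphatic RNA alone. Cycling markers summed to 80.3 CPM with TOP2A, CDK1 and UBE2C at 0, against 369 to 691 CPM, and glial markers to 1.91 CPM, against 6.09 to 10.02 CPM. Their part in the results below was not tested, apart from the alternatives named.

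The graft fibroblasts held high levels of several cytokine genes. IL6, LIF, CCL19 and AMCF-II exceeded every other structural class of the same library by several fold, and IL6, CSF1, CSF3, OSM and AMCF-II were called far above control fibroblasts. IL6 (interleukin 6, chr9:91506421-91510830 in the RefSeq annotation of Sscrofa11.1) was at 3118 CPM in graft fibroblasts, against 27.8, 24.7 and 20.8 CPM in control fibroblasts. The graft value lay above all 3 controls, as it lay outside their range for 86.9% of genes tested, and the change passed the test (log2 fold change 7.23 ± 0.24, adjusted p = 9.64e-07). Within the graft library IL6 was at 308 CPM in mural, 167 in endothelial, 27.6 in AT2 and 12.3 in other epithelial cells, so that fibroblasts had 10.1 times the level of the highest other class (95% counting interval 8.48 to 12.1). After each cell was thinned to 500 UMIs, 32.9% (95% interval 27.2 to 39.1) of graft fibroblasts had an IL6 UMI, compared with 8.33% of mural, 4.74% of endothelial, 1.08% of AT2 and 0.511% of other epithelial cells. In control fibroblasts the thinned share was 0.368, 1.33 and 1.28%.

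LIF (chr14:47221540-47239513), leukaemia inhibitory factor, was at 403 CPM in graft fibroblasts, against 3.86, 0.923 and 1.88 CPM in control fibroblasts. The graft value had a 95% counting interval of 351 to 462 CPM and lay above all controls. Within the graft library LIF was at 50.2 CPM in mural, 18.0 in endothelial, 19.2 in AT2 and 16.9 in other epithelial cells, and fibroblasts had 8.03 times the level of the highest other class (95% counting interval 5.17 to 13.1). At 500 UMIs, 13.1% (95% interval 9.19 to 17.9) of graft fibroblasts had a LIF UMI, compared with 2.92% of mural, 0% of endothelial, 0.717% of AT2 and 0.681% of other epithelial cells. No control fibroblast kept a LIF UMI at that depth, where 0 counts allow shares of up to 1.10, 0.266 and 0.202%, and at full depth 2, 5 and 11 control fibroblasts had one.

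CCL2 (chr12:40798109-40800013) was at 20192 CPM in graft fibroblasts, against 1029.8, 928 and 739.7 CPM in control fibroblasts. It was abundant in every structural class of the graft, at 8330.5 CPM in mural, 3417 in endothelial, 5980.2 in AT2 and 1656 in other epithelial cells, and fibroblasts had 2.42 times the level of the highest other class (95% counting interval 2.33 to 2.52). At 500 UMIs, 88.9% (95% interval 84.3 to 92.5) of graft fibroblasts had a CCL2 UMI, compared with 68.8% of mural, 40.5% of endothelial, 71.8% of AT2 and 35.4% of other epithelial cells, and with 33.1, 31.6 and 24.2% of control fibroblasts.

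**Figure D1:**
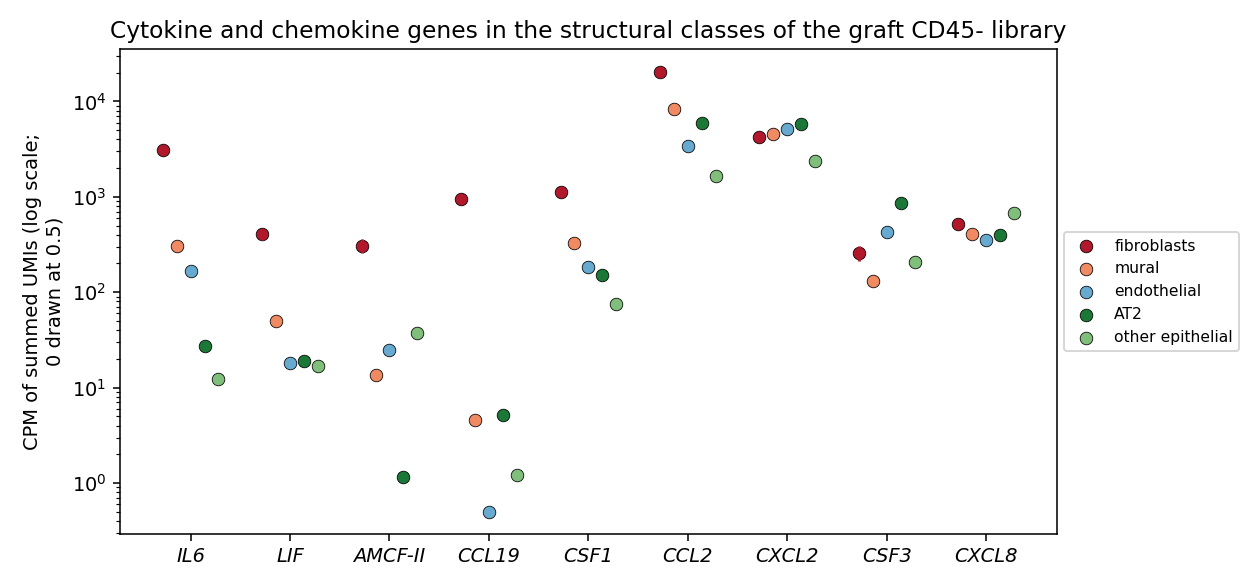
Levels of 9 cytokine and chemokine genes in the 5 structural classes of the graft CD45-negative library, in CPM of summed UMIs on a log axis, where 0 is drawn at 0.5. Each point is 1 class of 1 library and bars on the fibroblast points are 95% Poisson intervals. IL6, LIF, AMCF-II, CCL19, CSF1 and CCL2 are highest in fibroblasts, whereas CXCL2, CSF3 and CXCL8 are higher in another class.

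Among the 36 cytokine and chemokine genes listed, LIF and CCL2 aside, 8 of 26 tested genes (list of 36) were called higher in graft fibroblasts and 0 lower (lower: 1 at an unadjusted p under 0.05 in edgeR and 1 by DESeq2). The median over the 26 was 0.60, beside -0.49 over all genes tested. Leaving out control replicate 1, 2 or 3 gave medians of 1.0702, 1.42 and 1.06 and 2, 1 and 1 genes lower, and the median was 0.091 in members with under 1% SFTPC. The calls were IL6, CSF1, CSF3, CXCL2, CXCL14, AMCF-II, OSM and IL11. CSF1, the growth factor of macrophages, was at 1129.9 CPM in graft fibroblasts, against 71.8, 57.9 and 51.1 CPM in control fibroblasts (log2 fold change 4.45 ± 0.24, adjusted p = 4.48e-06), and fibroblasts had 3.49 times the level of the highest other class (95% counting interval 2.90 to 4.22) within the graft. CSF3, which drives granulocyte production, was at 256 CPM in graft fibroblasts, against 0, 0.554 and 0.752 CPM in control fibroblasts (log2 fold change 8.87 ± 0.34, adjusted p = 1.11e-06). AT2 cells of the graft had more of it, at 859 CPM.

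CXCL2, a neutrophil chemoattractant, was at 4235 CPM in graft fibroblasts, against 308, 119.8 and 129 CPM in control fibroblasts. The libraries did not overlap and the change passed the test (log2 fold change 4.73 ± 0.64, adjusted p = 0.0146), but not without control replicate 3 (adjusted p = 0.117) or with 10 or more rule UMIs per cell (adjusted p = 0.0745). It was not a fibroblast gene within the graft, at 4584 CPM in mural, 5187 in endothelial, 5729.6 in AT2 and 2352 in other epithelial cells. AMCF-II, a porcine neutrophil chemoattractant of the CXC family, was at 306 CPM in graft fibroblasts, against 3.09, 1.11 and 0.376 CPM in control fibroblasts (log2 fold change 8.53 ± 0.49, adjusted p = 6.10e-05), and fibroblasts had 8.13 times the level of the highest other class (95% counting interval 6.67 to 9.87). Only 17 members held an AMCF-II UMI, and the ratio was 3.00 without members carrying markers of another class and 3.57 without the 7 members in which SCGB1A1 made up 3% or more of UMIs.

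OSM, oncostatin M of the interleukin 6 family, was at 91.8 CPM in graft fibroblasts, against 5.41, 5.91 and 4.26 CPM in control fibroblasts (log2 fold change 4.38 ± 0.36, adjusted p = 4.30e-05). CXCL14, a chemokine of epithelia and stroma, was at 226 CPM in graft fibroblasts, against 67.2, 97.6 and 120.0 CPM in control fibroblasts (log2 fold change 1.44 ± 0.29, adjusted p = 0.00643), while mural cells of the graft had 326 CPM. IL11, another member of the interleukin 6 family, had 14 UMIs in graft fibroblasts and 1, 8 and 3 UMIs in the controls (log2 fold change 5.12). OSM did not reach 4 times the level of every other structural class of the graft. Immune markers were carried by 12 members, and which cells the OSM RNA came from was not tested.

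Several chemokines did not pass the test against controls. CCL19, which guides lymphocytes and dendritic cells that carry CCR7, was at 958 CPM in graft fibroblasts, against 222, 214 and 71.4 CPM in control fibroblasts (log2 fold change 2.70 ± 0.73, adjusted p = 0.0742). Among the cytokines with 50 CPM or more it had the highest class ratio within the graft, at 4.57 CPM in mural, 0 in endothelial, 5.13 in AT2 and 1.21 in other epithelial cells, which is 187 times the level of the highest other class (95% counting interval 152 to 231). CXCL8 was at 516 CPM in graft fibroblasts, against 17.0, 68.7 and 126 CPM in control fibroblasts (log2 fold change 3.02 ± 1.04, adjusted p = 0.149), and 3 members held at least 50% of its UMIs. CXCL10, a chemokine induced by interferon, was at 139.6 CPM in graft fibroblasts, against 155, 302 and 413 CPM in control fibroblasts (log2 fold change -0.85 ± 0.56, adjusted p = 0.297). The graft lay above all controls for CCL19 and CXCL8, and below them for CXCL10. CXCL12, the chemokine that retains leukocytes in stroma, was below all controls at 63.1 CPM in graft fibroblasts, against 607, 371 and 229.9 CPM in control fibroblasts (log2 fold change -2.47 ± 0.79, adjusted p = 0.0887). CCL5 overlapped the controls, at 199 CPM in graft fibroblasts, against 98.9, 303 and 299 CPM in control fibroblasts (log2 fold change -0.04 ± 0.75, adjusted p = 0.977).

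Most tested genes of the list for LIF and IL6 signalling were also higher. The list also holds receptors of other cytokines, such as IL4R and IL1R1. In that list, LIF aside, 13 of 18 tested genes (list of 20) were called higher in graft fibroblasts and 0 lower (lower: 1 at an unadjusted p under 0.05 in edgeR and 0 by DESeq2), with a median of 1.499. PIM1, a kinase gene induced by STAT3, was at 287 CPM in graft fibroblasts, against 30.1, 27.1 and 26.9 CPM in control fibroblasts (log2 fold change 3.57 ± 0.21, adjusted p = 7.58e-06). IL4R, the interleukin 4 receptor chain, was at 677 CPM in graft fibroblasts, against 63.3, 38.9 and 60.1 CPM in control fibroblasts (log2 fold change 3.87 ± 0.26, adjusted p = 1.56e-05). Both were above every control library. IL1R1, the receptor of interleukin 1, was at 537 CPM in graft fibroblasts, against 102, 73.3 and 65.3 CPM in control fibroblasts (log2 fold change 2.97 ± 0.27, adjusted p = 9.31e-05). OSMR, the oncostatin M receptor that pairs with gp130, was at 155 CPM in graft fibroblasts, against 32.4, 36.5 and 35.3 CPM in control fibroblasts (log2 fold change 2.35 ± 0.23, adjusted p = 0.00011). The graft lay above the controls for these receptors too. None of the 14 genes of the list with 50 CPM or more reached 4 times the level of every other structural class, which is a rule that 81 of 2664 such genes (3.04%) met.

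NF-kB targets and feedback inhibitors were higher against controls but were shared with other graft cells. In that list 17 of 22 tested genes (list of 23) were called higher in graft fibroblasts and 1 lower, with a median of 1.86, and the gene called lower was TNFAIP8 at -2.33. NFKBIA, the inhibitor that retains NF-kB in the cytoplasm, was at 6802 CPM in graft fibroblasts, against 1419, 1427 and 1305 CPM in control fibroblasts (log2 fold change 2.50 ± 0.18, adjusted p = 2.20e-05). SOD2, the mitochondrial superoxide dismutase, was at 811 CPM in graft fibroblasts, against 74.2, 76.0 and 66.0 CPM in control fibroblasts (log2 fold change 3.70 ± 0.21, adjusted p = 6.36e-06). NFKB1, the p50 precursor, was at 581 CPM in graft fibroblasts, against 83.4, 73.1 and 93.8 CPM in control fibroblasts (log2 fold change 3.01 ± 0.21, adjusted p = 1.67e-05), and TNIP1, which dampens NF-kB, was at 302 CPM in graft fibroblasts, against 73.4, 74.0 and 75.3 CPM in control fibroblasts (log2 fold change 2.23 ± 0.20, adjusted p = 8.52e-05). Each of these graft values lay outside the controls, as did 86.9% of all genes tested. Endothelial cells of the graft had 11637 CPM of NFKBIA, and AT2 cells had 1159 CPM of SOD2, both above the fibroblasts. Of 17 genes of the list with 50 CPM or more, 1, TNFAIP6, met the 4-fold rule.

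**Figure D2:**
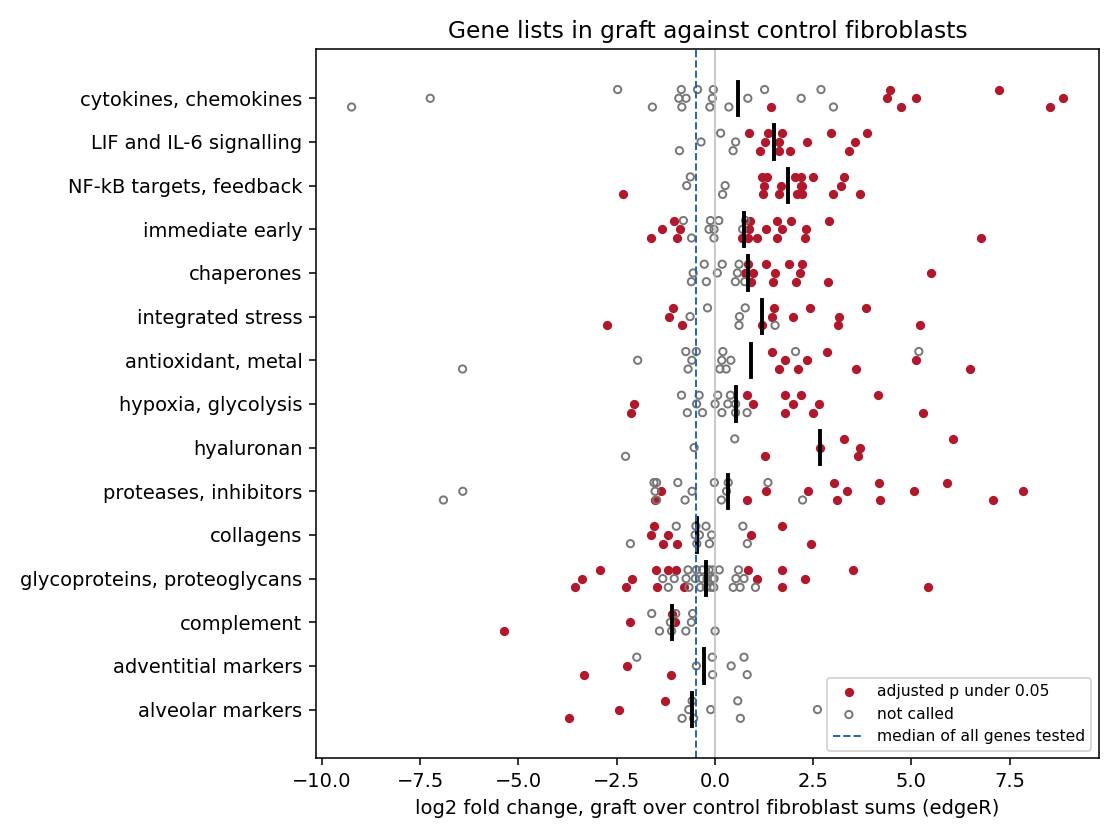
Log2 fold changes of graft over control fibroblast sums (x axis, edgeR) for the tested genes of 15 lists, with the rule genes, LIF and CCL2 left out. Each point is a gene, red where the adjusted p was under 0.05, the black bar is the list's median and the dashed line the median of all genes tested, -0.49. Medians of the hyaluronan, NF-kB and LIF and IL-6 signalling lists lie to the right of that line, and those of complement and alveolar markers to its left.

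Immediate-early genes moved in both directions. In that list 14 of 28 tested genes (list of 30) were called higher in graft fibroblasts and 5 lower, with a median of 0.74. FOSL1, an AP-1 subunit, was at 205 CPM in graft fibroblasts, against 3.09, 2.40 and 1.75 CPM in control fibroblasts (log2 fold change 6.76 ± 0.30, adjusted p = 1.57e-06). IER3, an early response gene that affects cell survival, was at 1797 CPM in graft fibroblasts, against 424, 471 and 377 CPM in control fibroblasts (log2 fold change 2.28 ± 0.21, adjusted p = 9.39e-05). KLF6 was at 589 CPM in graft fibroblasts, against 117, 166 and 125 CPM in control fibroblasts (log2 fold change 2.31 ± 0.25, adjusted p = 0.000201) and MAFF at 677 CPM in graft fibroblasts, against 88.8, 108 and 116 CPM in control fibroblasts (log2 fold change 2.89 ± 0.21, adjusted p = 2.26e-05), both genes of transcription factors. The 5 called lower, named after their values were seen, were JUN at -1.04, JUNB at -0.95, EGR1 at -0.90, NR4A2 at -1.35 and NR4A3 at -1.61, and 3 genes were called lower without control replicate 2. FOS was below all controls, at 1914 CPM in graft fibroblasts, against 3766, 3373 and 2795 CPM in control fibroblasts, without passing the test (log2 fold change -0.59 ± 0.25, adjusted p = 0.101).

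Some chaperones of the endoplasmic reticulum, mitochondria and cytosol were higher. HSPA8, a cytosolic chaperone among the 4 genes of the list with the highest CPM, was not called (log2 fold change 0.06). In the chaperone list 13 of 23 tested genes (list of 25) were called higher in graft fibroblasts and 0 lower (lower: 1 at an unadjusted p under 0.05 in edgeR and 0 by DESeq2), with a median of 0.83. HSPA5, the chaperone BiP of the endoplasmic reticulum, was at 3831 CPM in graft fibroblasts, against 570.1, 629 and 587 CPM in control fibroblasts (log2 fold change 2.89 ± 0.19, adjusted p = 1.11e-05), close to the 4049 CPM of AT2 cells. HSPA9, the mitochondrial chaperone, was at 479.9 CPM in graft fibroblasts, against 86.5, 122 and 145 CPM in control fibroblasts (log2 fold change 2.22 ± 0.26, adjusted p = 0.0003). CRYAB, the small heat shock protein alpha-B-crystallin, was at 1608 CPM in graft fibroblasts, against 57.9, 43.4 and 24.9 CPM in control fibroblasts (log2 fold change 5.51 ± 0.43, adjusted p = 0.000447), and fibroblasts had 2.28 times the level of the highest other class (95% counting interval 2.00 to 2.61).

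Genes of the integrated stress response, which slows translation and raises amino acid supply, were split. In that list 9 of 19 tested genes (list of 20) were called higher in graft fibroblasts and 4 lower, with a median of 1.19, or 0.74 in members with under 1% SFTPC, and the number called lower was 1 without control replicate 1 and 2 without control replicate 2. ATF4, its transcription factor, was at 3741 CPM in graft fibroblasts, against 409, 561 and 491 CPM in control fibroblasts (log2 fold change 3.14 ± 0.21, adjusted p = 1.37e-05). TRIB3, a pseudokinase gene induced by ATF4, was at 449 CPM in graft fibroblasts, against 8.50, 17.2 and 13.8 CPM in control fibroblasts (log2 fold change 5.21 ± 0.27, adjusted p = 4.48e-06). CHAC1, a glutathione-degrading enzyme, was at 51.6 CPM in graft fibroblasts, against 4.64, 3.69 and 4.26 CPM in control fibroblasts (log2 fold change 3.86 ± 0.43, adjusted p = 0.000227). The 4 called lower were DDIT3 at -1.07, DDIT4 at -1.17, GADD45A at -0.84 and VLDLR at -2.74.

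Some antioxidant and hypoxia genes were higher. In the antioxidant and metal list 9 of 22 tested genes (list of 25) were called higher in graft fibroblasts and 0 lower (lower: 1 at an unadjusted p under 0.05 in edgeR and 0 by DESeq2), with a median of 0.93, or 1.62 without control replicate 2 and 1.71 without control replicate 3. SRXN1, which repairs oxidised peroxiredoxins, was at 298 CPM in graft fibroblasts, against 12.4, 8.67 and 10.1 CPM in control fibroblasts (log2 fold change 5.11 ± 0.24, adjusted p = 2.11e-06). TXNRD1, thioredoxin reductase, was at 159 CPM in graft fibroblasts, against 27.8, 40.2 and 36.8 CPM in control fibroblasts (log2 fold change 2.35 ± 0.25, adjusted p = 0.000203). ACSL4, which loads polyunsaturated fatty acids into lipids, was at 629 CPM in graft fibroblasts, against 86.5, 115 and 94.7 CPM in control fibroblasts (log2 fold change 2.87 ± 0.23, adjusted p = 3.63e-05). The graft value of each was above every control, and 1 gene of the list was called lower without control replicate 3. In the hypoxia and glycolysis list 10 of 25 tested genes (list of 26) were called higher in graft fibroblasts and 2 lower, with a median of 0.53. The genes called lower were BNIP3L at -2.14 and EGLN1 at -2.07, of which 1 was called without control replicate 3. HK2, a hexokinase, was at 273 CPM in graft fibroblasts, against 22.4, 14.6 and 18.3 CPM in control fibroblasts (log2 fold change 4.15 ± 0.25, adjusted p = 7.76e-06). NDRG1, a hypoxia-induced gene, was at 619 CPM in graft fibroblasts, against 138, 106 and 96.6 CPM in control fibroblasts (log2 fold change 2.66 ± 0.25, adjusted p = 9.63e-05). Across the stress lists, no gene of the immediate-early, chaperone, integrated stress, antioxidant or hypoxia lists met the 4-fold rule within the graft library.

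Hyaluronan genes stood out in both comparisons. Hyaluronan is a large sugar polymer of the matrix, made at the cell membrane from UDP-glucuronic acid and UDP-N-acetylglucosamine. In that list 6 of 9 tested genes (list of 12) were called higher in graft fibroblasts and 0 lower (lower: 0 at an unadjusted p under 0.05 in edgeR and 0 by DESeq2), with a median of 2.68, and 3 of the 5 genes with 50 CPM or more met the 4-fold rule. HAS1 (chr6:58303274-58313486), a hyaluronan synthase, was at 333 CPM in graft fibroblasts, against 0.773, 8.49 and 5.14 CPM in control fibroblasts (log2 fold change 6.05 ± 0.52, adjusted p = 0.00126). It was at 36.5 CPM in mural, 0 in endothelial, 5.70 in AT2 and 1.81 in other epithelial cells, so that fibroblasts had 9.11 times the level of the highest other class (95% counting interval 5.45 to 16.3). At 500 UMIs, 11.11% (95% interval 7.51 to 15.7) of graft fibroblasts had a HAS1 UMI, against 0, 0.355 and 0.472% of control fibroblasts.

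UGDH, which makes UDP-glucuronic acid, was at 1893 CPM in graft fibroblasts, against 138, 209.8 and 152 CPM in control fibroblasts (log2 fold change 3.70 ± 0.25, adjusted p = 1.47e-05), and fibroblasts had 18.4 times the level of the highest other class (95% counting interval 13.7 to 25.4). GFPT2, which opens the path to UDP-N-acetylglucosamine, was at 843 CPM in graft fibroblasts, against 116, 144 and 91.1 CPM in control fibroblasts (log2 fold change 3.05 ± 0.27, adjusted p = 8.08e-05), and fibroblasts had 46.2 times the level of the highest other class (95% counting interval 23.2 to 108). Both enzymes lay above every control, where the graft lay outside the controls for 86.9% of all genes tested. TNFAIP6, which links proteins to hyaluronan, was at 356 CPM in graft fibroblasts, against 35.5, 59.1 and 29.6 CPM in control fibroblasts (log2 fold change 3.29 ± 0.39, adjusted p = 0.00183), and fibroblasts had 38.9 times the level of the highest other class (95% counting interval 14.96 to 144). CD44, the hyaluronan receptor, was at 692 CPM in graft fibroblasts, against 51.8, 73.8 and 64.1 CPM in control fibroblasts (log2 fold change 3.64 ± 0.23, adjusted p = 1.04e-05), below the 1386 CPM of mural cells. HAS1, TNFAIP6 and CD44 lay above the controls as well. PTX3, a pentraxin that binds TNFAIP6 in hyaluronan matrices and was named after its values were seen, was at 6456 CPM in graft fibroblasts, against 61.0, 80.8 and 34.3 CPM in control fibroblasts (log2 fold change 6.98 ± 0.49, adjusted p = 0.000806), and fibroblasts had 7.23 times the level of the highest other class (95% counting interval 6.51 to 8.05).

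Among matrix proteases and their inhibitors, most of the genes called changed were higher. In that list 12 of 29 tested genes (list of 35) were called higher in graft fibroblasts and 2 lower, with a median of 0.34, or 0.80 without control replicate 2 and 0.93 without control replicate 3. PLAU, the urokinase that activates plasminogen, was at 4904 CPM in graft fibroblasts, against 40.9, 53.5 and 29.8 CPM in control fibroblasts (log2 fold change 7.09 ± 0.32, adjusted p = 9.15e-06), and fibroblasts had 6.29 times the level of the highest other class (95% counting interval 5.62 to 7.06), or 3.49 times when classes were taken from clusters. TIMP1, the inhibitor of metalloproteinases, was at 3514 CPM in graft fibroblasts, against 259, 242 and 172 CPM in control fibroblasts (log2 fold change 4.17 ± 0.25, adjusted p = 1.07e-05), and ADAMTS4, an aggrecanase, was at 1057 CPM in graft fibroblasts, against 32.4, 43.7 and 31.6 CPM in control fibroblasts (log2 fold change 5.07 ± 0.25, adjusted p = 2.78e-06). All 3 lay above every control, where the graft lay outside the controls for 86.9% of all genes tested. The 2 genes called lower were MMP23B at -1.37 and SERPINF1 at -1.53.

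**Figure D3:**
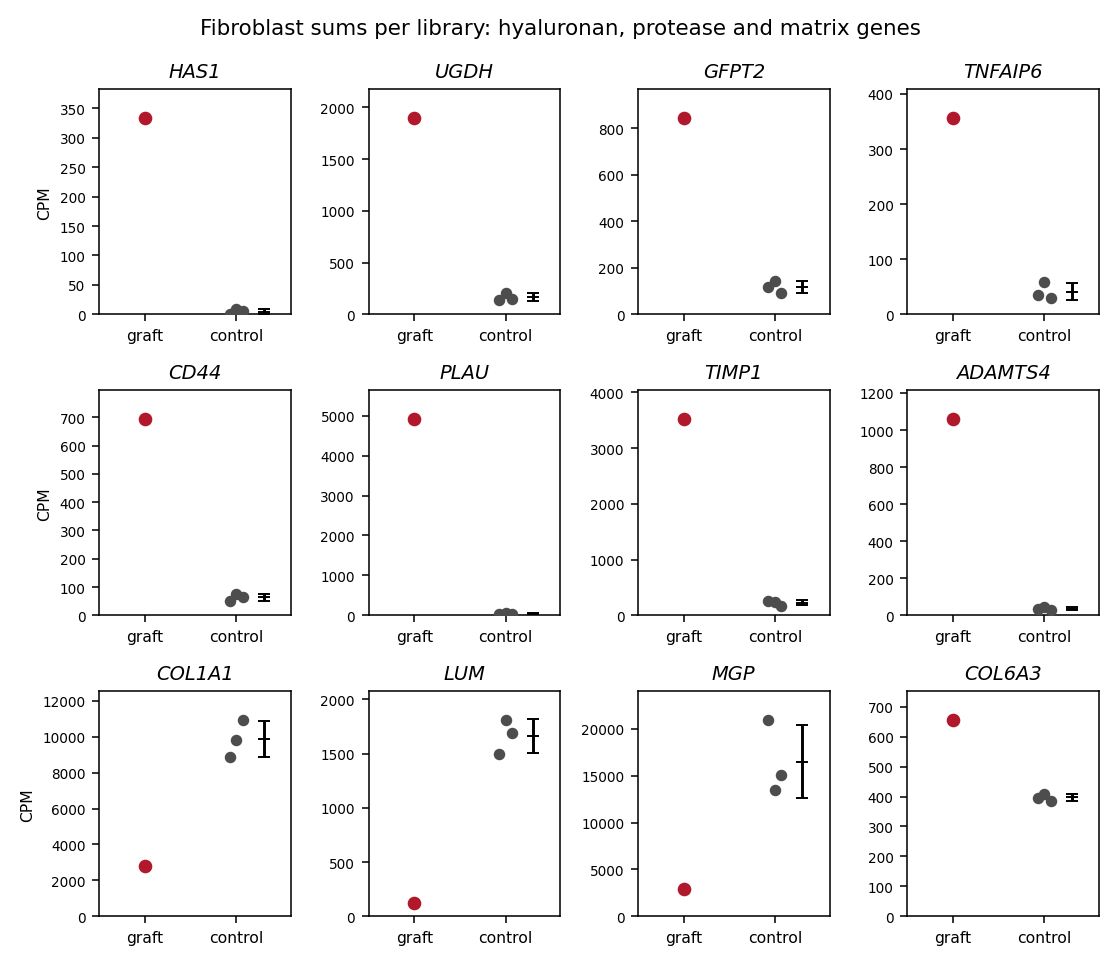
Levels of 12 hyaluronan, protease and matrix genes in the fibroblast sums of each library, in CPM on linear axes from 0. Red points are the graft library, grey points the 3 control libraries, with their mean and SD as a black bar. HAS1, UGDH, GFPT2, TNFAIP6, CD44, PLAU, TIMP1, ADAMTS4 and COL6A3 lie above all controls in the graft, and COL1A1, LUM and MGP below them.

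Several collagens were lower in the graft fibroblasts, among them the fibrillar chains COL1A1 and COL5A2. Of the collagens, the rule genes COL1A2 and COL3A1 aside, 3 of 19 tested genes (list of 24) were called higher in graft fibroblasts and 5 lower, with a median of -0.46. COL1A1 was at 2782 CPM in graft fibroblasts, against 8865, 9812 and 10897 CPM in control fibroblasts (log2 fold change -1.62 ± 0.21, adjusted p = 0.000554). COL5A2, a chain of type V collagen that regulates fibril width, was at 161 CPM in graft fibroblasts, against 462, 548 and 614 CPM in control fibroblasts (log2 fold change -1.55 ± 0.27, adjusted p = 0.00284). Both lay below every control, whereas the share of collagens called higher was close to that of all genes. The other genes called lower were COL14A1 at -1.20, COL6A1 at -0.97 and COL6A6 at -1.33. COL6A3, a chain of the type VI microfibril, was higher at 654 CPM in graft fibroblasts, against 395, 409.5 and 386 CPM in control fibroblasts (log2 fold change 0.92 ± 0.21, adjusted p = 0.0115). COL4A1, of basement membranes, was higher at 432 CPM in graft fibroblasts, against 197, 112 and 151 CPM in control fibroblasts (log2 fold change 1.71 ± 0.30, adjusted p = 0.0036), while mural cells had 1596 CPM, and COL13A1 was higher at 2.44.

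The matrix glycoproteins and proteoglycans also changed in both directions. Of the genes in that list, DCN aside, 7 of 43 tested genes (list of 45) were called higher in graft fibroblasts and 10 lower, with a median of -0.22, and 12 were called higher without control replicate 1. The share called higher was close to that of all genes. LUM was at 122 CPM in graft fibroblasts, against 1500.2, 1807 and 1689 CPM in control fibroblasts (log2 fold change -3.56 ± 0.28, adjusted p = 3.52e-05). MGP, an inhibitor of calcification, was at 2969 CPM in graft fibroblasts, against 20876, 13507 and 15071 CPM in control fibroblasts (log2 fold change -2.27 ± 0.31, adjusted p = 0.00118). SPARC, a collagen-binding glycoprotein, was at 5437 CPM in graft fibroblasts, against 10583, 10264 and 11488 CPM in control fibroblasts (log2 fold change -0.78 ± 0.19, adjusted p = 0.0139), a call lost without control replicate 1 (adjusted p = 0.0633) or 2 (adjusted p = 0.0747). The other genes called lower were ASPN at -2.92, FBLN1 at -1.47, LTBP4 at -0.997, MFAP4 at -1.20, OGN at -2.11, PRELP at -3.38 and SRPX at -1.51.

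The genes called higher were the matricellular genes THBS1, TNC, CCN1 and THBS2, the fibulin FBLN2, the laminin chain LAMB1 and LTBP1, which binds latent TGF-beta. THBS1, thrombospondin 1, was at 6026 CPM in graft fibroblasts, against 629.6, 628 and 546 CPM in control fibroblasts (log2 fold change 3.53 ± 0.19, adjusted p = 4.92e-06). TNC, tenascin C, was at 493 CPM in graft fibroblasts, against 13.1, 18.1 and 8.77 CPM in control fibroblasts (log2 fold change 5.42 ± 0.36, adjusted p = 8.13e-05), and CCN1, an integrin ligand, was at 2501 CPM in graft fibroblasts, against 697, 594 and 479.6 CPM in control fibroblasts (log2 fold change 2.28 ± 0.24, adjusted p = 0.000193). No control overlapped the graft for these 3 genes, where the graft lay outside the controls for 86.9% of all genes tested. Mural cells of the graft had more of the first 2, with 10289 CPM of THBS1 and 991 CPM of TNC.

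Of the collagen-modifying enzymes, 4 of 18 tested genes (list of 19) were called higher in graft fibroblasts and 3 lower, with a median of 0.14, or 0.38 without control replicate 2 and 0.27 without control replicate 3. Set against 13.1% higher and 13.6% lower over all genes tested, these counts are not read as a property of the list. SERPINH1, the collagen chaperone HSP47, was at 717 CPM in graft fibroblasts, against 321, 379.8 and 338 CPM in control fibroblasts (log2 fold change 1.25 ± 0.22, adjusted p = 0.00283). PLOD3, a lysyl hydroxylase, was at 42.1 CPM in graft fibroblasts, against 12.4, 20.1 and 18.3 CPM in control fibroblasts (log2 fold change 1.46 ± 0.39, adjusted p = 0.0231). PLOD2, which hydroxylates the telopeptides of collagen, was at 17.2 CPM in graft fibroblasts, against 101, 88.8 and 94.2 CPM in control fibroblasts (log2 fold change -2.25 ± 0.35, adjusted p = 0.00164). PLOD3 lay above and PLOD2 below every control, while CRTAP, a partner of prolyl hydroxylation, was called lower at -1.54. LOX, the lysyl oxidase, was at 283 CPM in graft fibroblasts, against 671, 479 and 603 CPM in control fibroblasts (log2 fold change -0.84 ± 0.27, adjusted p = 0.0457), a call lost without control replicate 1 (adjusted p = 0.0591) or 3 (adjusted p = 0.0677) and with median-ratio scaling (adjusted p = 0.0797), and under 8 alternatives in all.

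Complement genes, which lung fibroblasts express at high levels, were called lower or did not pass the test. In that list 0 of 13 tested genes (list of 18) were called higher in graft fibroblasts and 4 lower (higher: 0 at an unadjusted p under 0.05 in edgeR and 0 by DESeq2), with a median of -1.10. The number called lower was 2 without control replicate 1, 8 without control replicate 3 and 1 with median-ratio scaling. C7, a component of the membrane attack complex, was at 195 CPM in graft fibroblasts, against 1154, 892 and 984 CPM in control fibroblasts (log2 fold change -2.17 ± 0.28, adjusted p = 0.000546), yet fibroblasts had 85.4 times the level of the highest other class (95% counting interval 14.99 to 3406) within the graft. C1S, the protease of the first component, was at 1506 CPM in graft fibroblasts, against 4214, 4187 and 2712 CPM in control fibroblasts (log2 fold change -1.10 ± 0.32, adjusted p = 0.0357), a call lost without control replicate 1 (adjusted p = 0.0548) or with median-ratio scaling (adjusted p = 0.0538).

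SERPING1, its inhibitor, was at 1321 CPM in graft fibroblasts, against 3657, 3253 and 2264 CPM in control fibroblasts (log2 fold change -1.02 ± 0.32, adjusted p = 0.0458), a call lost without control replicate 1 (adjusted p = 0.0686) or 2 (adjusted p = 0.0539) and with median-ratio scaling (adjusted p = 0.0721), and under 6 alternatives in all. C1QA, a macrophage gene, had 1 UMI in graft fibroblasts and 162, 273 and 868 UMIs in the controls (log2 fold change -5.38 ± 1.36, adjusted p = 0.0445). That call was lost without control replicate 1 (adjusted p = 0.123) or 3 (adjusted p = 0.0839) and without cells that carried immune or other markers (adjusted p = 0.517), and under 6 alternatives in all. C3, the central component, was at 3734 CPM in graft fibroblasts, against 8554, 7231 and 5624 CPM in control fibroblasts (log2 fold change -0.74 ± 0.27, adjusted p = 0.0776). Of 11 complement genes with 50 CPM or more, 7 met the 4-fold rule.

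**Figure D4:**
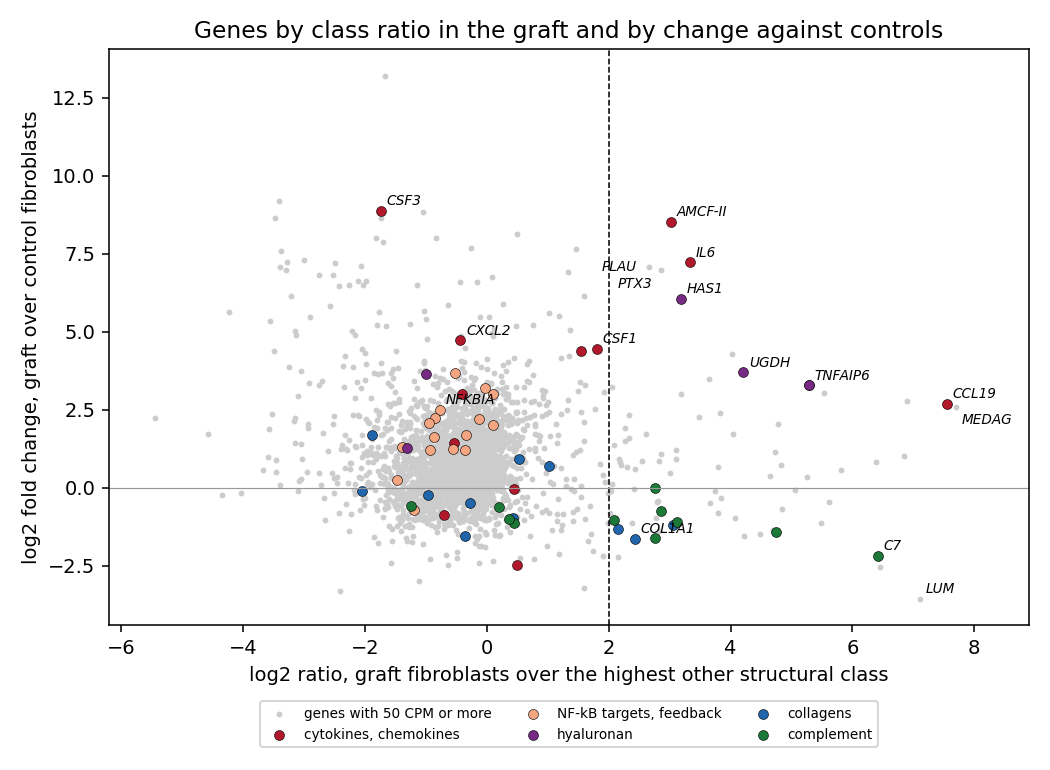
Genes with 50 CPM or more in graft fibroblasts, by log2 ratio over the highest other structural class of the graft library (x axis) and log2 fold change over control fibroblasts (y axis). Each point is a gene, coloured for 5 lists, and the dashed line marks the 4-fold rule. IL6, AMCF-II, HAS1, UGDH and TNFAIP6 lie in the upper right, C7, LUM and COL1A1 in the lower right, and CSF3, CXCL2 and NFKBIA to the left of the line.

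The comparison within the graft and that with controls use the same graft cells, and they picked partly different genes. Of the 81 genes that met the 4-fold rule within the graft, 78 could be tested against controls, of which 26 were called higher in the graft, 17 lower and 35 neither. The 12 genes with the highest class ratios and 100 CPM or more were MEDAG, CCL19, LUM, POSTN, C7, CHRDL1, GFPT2, PI16, TNFAIP6, DPT, GPC3 and MFAP5. MEDAG, an adipocyte differentiation gene, was at 946 CPM, 207 (57.1 to 1716) times the highest other class, and was above all controls, which were at 178, 199 and 161 CPM (log2 fold change 2.60 ± 0.22, adjusted p = 5.23e-05). POSTN, periostin, had a ratio of 115 (20.4 to 4593) and CHRDL1, an antagonist of bone morphogenetic proteins, one of 56.1 (15.2 to 468), and neither passed the test against controls.

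The genes with the greatest changes against controls were often genes of other cells. The 10 greatest increases were SCGB1A1, ELF3, CSF3, SFTPD, CRISP3, AMCF-II, RETN, ESM1, SCGB3A2 and BDKRB1. SCGB1A1 was at 15566 CPM in graft fibroblasts, against 0.773, 1.11 and 2.76 CPM in control fibroblasts (log2 fold change 13.21, or 8.56 without the 7 members rich in it). For SFTPD, surfactant protein D, at 128 CPM in members, scaled AT2 RNA equals 60.1% of that level, and for ELF3, an epithelial transcription factor, at 117 CPM, 28.3%. SCGB3A2, another club cell secretoglobin, changed by 8.00, or by 4.71 without those 7 members, and CRISP3, a secreted cysteine-rich protein, by 8.63, or by 5.64. RETN, resistin, had 48 UMIs in graft fibroblasts, against 0, 4 and 1 UMIs in control ones, while immune cells of the same library were at 447 CPM. Several of these genes were thus higher in other cells of the graft than in the fibroblasts. BDKRB1, the inducible bradykinin receptor, was at 91.8 CPM in graft fibroblasts, against 0.773, 0.554 and 0.376 CPM in control fibroblasts (log2 fold change 7.70 ± 0.47, adjusted p = 9.15e-06). ESM1, a proteoglycan gene of activated endothelium, was at 141 CPM in graft fibroblasts, against 0, 0.738 and 0.626 CPM in control fibroblasts (log2 fold change 8.01 ± 0.41, adjusted p = 3.89e-06), with 253 CPM in mural cells.

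The 10 greatest decreases, among them COL19A1, CTNNA3, C1QC and SLC9A4, had 0 UMIs in graft fibroblasts. Against a floor of 3 counts, which is 5.74 CPM, COL19A1 was at least 119-fold lower and CTNNA3 at least 74.9-fold lower than the control mean. C1QC, a macrophage gene, lost its call without members carrying other markers (adjusted p = 0.0898) and with 10 or more rule UMIs (adjusted p = 0.418). COL19A1 was also low over the whole graft library, at 0.910 CPM, against 899, 851 and 665 CPM in whole control libraries. Of the 1896 genes called lower, 198 had at most 10% of the level of every control in each whole library from grafts, and 9 of these 10 were among them. LUM, MGP, PRELP, ASPN and C7 were too, although libraries also differ in their share of fibroblasts. Moreover, 687 genes were listed in every control library and in no library from grafts, so for genes such as COL19A1 and CTNNA3 a lower level and a difference in how control and graft libraries were counted cannot be told apart. The part that this played in each decrease was not tested.

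Members split by lists of subtype markers differed in their cytokine levels within the graft. By UMIs of the adventitial and alveolar marker lists, 147 members had more adventitial than alveolar UMIs, 62 had alveolar UMIs at or above the adventitial ones and 43 had neither. These are called adventitial-type, alveolar-type and unmarked members. Of adventitial markers with 50 CPM or more, 5 of 6 met the 4-fold rule within the graft, with a median class ratio of 20.5. Of such alveolar markers 1 of 5 met it, with a median of 1.18, where 3.04% of all such genes did. The alveolar list thus set fibroblasts apart from other graft cells less well, and the alveolar type is the less certain label. Their median depths were 1582, 1453.5 and 1084 UMIs, and their median SFTPC shares were 0.560, 0.667 and 0.745%.

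IL6 was at 4608 CPM in adventitial-type, 296 in alveolar-type and 783 in unmarked members. LIF was at 602 CPM in adventitial-type, 62.2 in alveolar-type and 17.0 in unmarked members. HAS1 was at 488 CPM in adventitial-type, 38.9 in alveolar-type and 85.1 in unmarked members, and UGDH at 2853 CPM in adventitial-type, 202 in alveolar-type and 102 in unmarked members. Adventitial-type members were highest for all 4 genes. At 500 UMIs, an IL6 UMI was found in 49.0% of adventitial-type, 14.5% of alveolar-type and 18.6% of unmarked members. A LIF UMI was found in 17.7%, 3.23% and 0% of the same members.

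PTX3, PLAU, MEDAG, GFPT2 and TNFAIP6 had the same order of adventitial over alveolar type in the graft. IL6, CCL2, UGDH, PTX3, MEDAG, GFPT2 and TNFAIP6 had this order in all 3 control libraries too, while LIF, with 2 to 8 UMIs per type and library, had the opposite order there and PLAU was mixed. PTX3 was at 9719 CPM in adventitial-type, 506 in alveolar-type and 834 in unmarked members, and PLAU at 7226 CPM in adventitial-type, 839.9 in alveolar-type and 528 in unmarked members. CCL2 was more even, at 25597 CPM in adventitial-type, 11814 in alveolar-type and 7643 in unmarked members. TNC ran the other way, at 185 CPM in adventitial-type, 1268 in alveolar-type and 562 in unmarked members. CCL19 was also highest in alveolar-type members, at 721 CPM in adventitial-type, 1719 in alveolar-type and 647 in unmarked members, as was CHI3L1, a chitinase-like glycoprotein, at 1361 CPM in adventitial-type, 4542 in alveolar-type and 579 in unmarked members. In all 3 controls CCL19 and CHI3L1 were instead higher in the adventitial type.

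**Figure D5:**
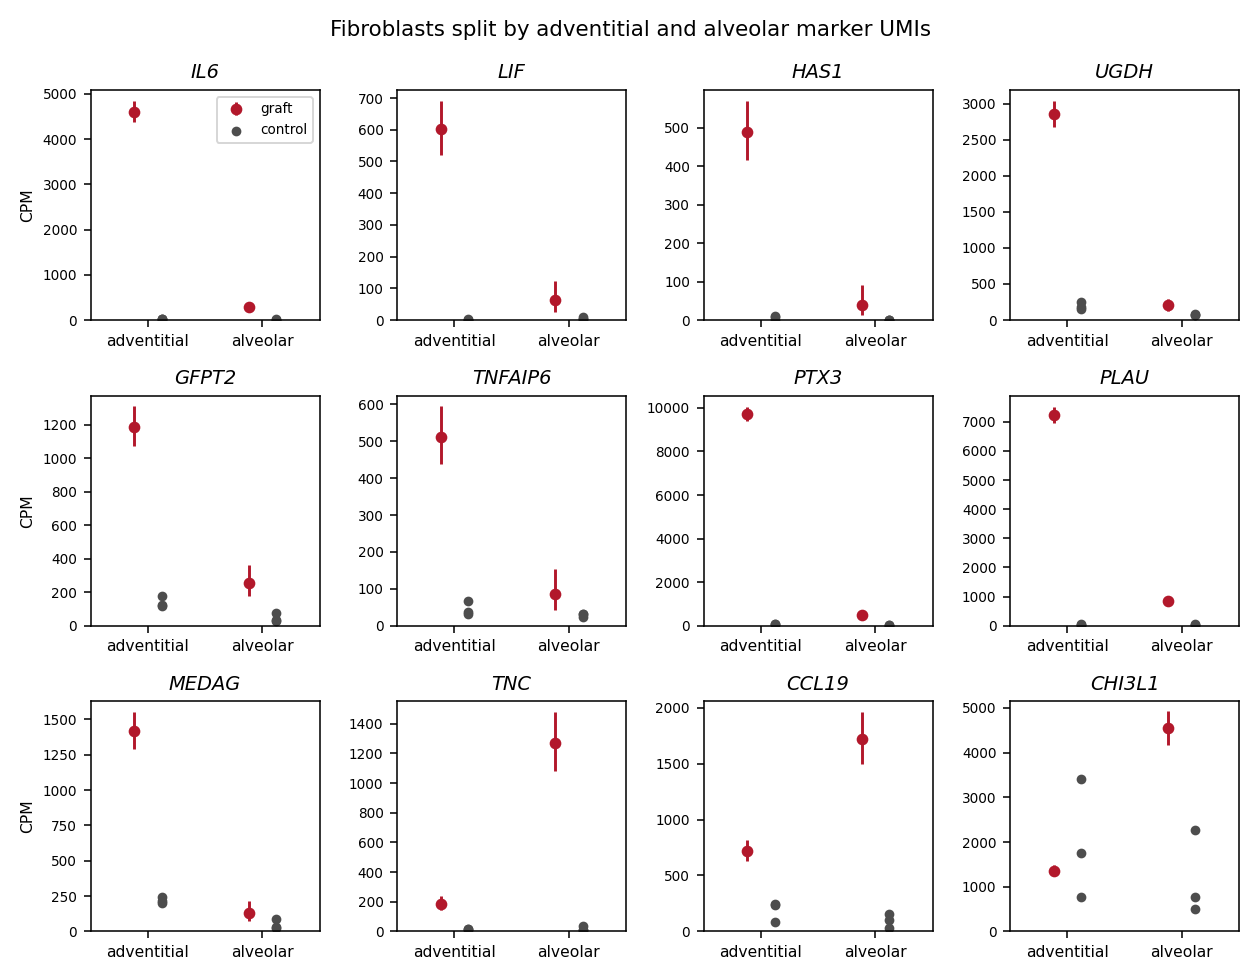
Levels of 12 genes in adventitial-type and alveolar-type fibroblasts, in CPM on linear axes from 0. Cells with equal adventitial and alveolar marker UMIs, where above 0, count as alveolar-type. Red points are the graft library with 95% Poisson intervals, and grey points the 3 control libraries. IL6, LIF, HAS1, UGDH, GFPT2, TNFAIP6, PTX3, PLAU and MEDAG are higher in adventitial-type than in alveolar-type graft cells, and TNC, CCL19 and CHI3L1 are higher in alveolar-type ones.

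Against control fibroblasts of the same types, IL6 and TNC were higher in the graft and CHI3L1 differed by type. Graft adventitial-type fibroblasts had 4608 CPM of IL6, against 33.1, 25.5 and 25.6 CPM in control adventitial-type ones. Graft alveolar-type fibroblasts had 296 CPM, against 4.43, 22.2 and 8.89 CPM in control alveolar-type ones. For TNC, graft alveolar-type fibroblasts had 1268 CPM, against 8.86, 33.3 and 10.7 CPM in control ones. In the adventitial type TNC was at 185 CPM in the graft, against 14.2, 13.0 and 7.90 CPM in control ones. The graft lay above all controls in both types for IL6 and for TNC. For CHI3L1, graft adventitial-type fibroblasts had 1361 CPM, against 3417, 1745 and 762.4 CPM in control ones, so the graft value lay within the range of the controls. Graft alveolar-type fibroblasts had 4542 CPM, against 2268, 778 and 493 CPM in control ones, and lay above them.

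The mix of types also differed between libraries. At 500 UMIs per cell, 49.6% of graft fibroblasts were of the adventitial type (95% interval 43.3 to 55.9), against 63.6, 78.0 and 71.3% of control fibroblasts. Unmarked cells made up 30.6% of graft and 12.5, 7.64 and 10.2% of control fibroblasts, and alveolar-type cells 19.8% of graft and 23.9, 14.4 and 18.4% of control fibroblasts. Among adventitial markers 0 of 10 tested genes (list of 12) were called higher in graft fibroblasts and 3 lower (higher: 0 at an unadjusted p under 0.05 in edgeR and 0 by DESeq2), with a median of -0.27, and without control replicate 2 the median was -0.099 and 2 were called higher. PI16 was at 822 CPM in graft fibroblasts, against 2044, 1635 and 2530.1 CPM in control fibroblasts (log2 fold change -1.12 ± 0.27, adjusted p = 0.0131), and MFAP5, a microfibril protein, at 1977 CPM in graft fibroblasts, against 1003, 1859.7 and 1208 CPM in control fibroblasts (log2 fold change 0.74 ± 0.33, adjusted p = 0.139). DPP4, a cell surface peptidase, was at 7.65 CPM in graft fibroblasts, against 78.8, 99.8 and 84.3 CPM in control fibroblasts (log2 fold change -3.32 ± 0.45, adjusted p = 0.000768), and CD34, a sialomucin, at 9.56 CPM in graft fibroblasts, against 54.8, 42.8 and 58.3 CPM in control fibroblasts (log2 fold change -2.23 ± 0.46, adjusted p = 0.00744). Among alveolar markers 0 of 11 tested genes (list of 14) were called higher in graft fibroblasts and 3 lower (higher: 2 at an unadjusted p under 0.05 in edgeR and 0 by DESeq2), with a median of -0.58. Among the genes called lower were FGF10 at -3.71 and INMT at -2.45, and 1 gene was called higher without control replicate 1. These lists define the types, so their levels and the mix are not separate measurements.

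Cytokine UMIs were unevenly spread over members. IL6 UMIs came from 116 of 252 cells, and 10 cells held at least 50% of them. LIF UMIs came from 60 cells, of which 12 held at least 50%, while CCL2 UMIs came from 235 cells and 37 held at least 50%. Both LIF and IL6 were detected in 47 cells, and all 47 also had CCL2, while 35 cells had both IL6 and HAS1. By depth, IL6 was at 1173, 1725 and 4047 CPM in the 84 members with the fewest, the middle 84 and the 84 with the most UMIs. Over 84 members each with the lowest, middle and highest SFTPC shares it was at 3712, 3362 and 1576 CPM, and LIF at 488, 309 and 350 CPM. The median depth of those members was 2172, 1394.5 and 1080.0 UMIs, so SFTPC share and depth moved together and their parts were not tested.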

How the data were processed

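Single-cell RNA was measured in 6 libraries built with a DNBelab droplet kit, per the labels' protocols. The authors deposited UMI counts per gene and cell. PISA wrote the matrices, per the file headers, and Sscrofa11.1, R 4.2.2 and Seurat 5.5.3 are named in the submitters' processing notes; which aligner and annotation were used is not given in the sources used here. The 6 libraries held 19098567 to 40647380 UMIs. Control cells started at 1001 UMIs and cells of the graft CD45-negative library at 117. Cell names in the files are running numbers, so barcodes shared between libraries could not be looked for, and no doublet caller was run.

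The fibroblast members, gene lists and comparisons were chosen with earlier results of these data known. Counts were summed over fibroblasts per library with Python 3.11.15, numpy 2.4.6, scipy 1.17.1 and pandas 2.3.3. Genes listed in all 4 libraries compared (25013) entered edgeR 4.0.16 in R 4.3.3 (TMM scaling, filterByExpr, robust quasi-likelihood fit). Genes outside this set hold 0.192% of graft and 6.63 to 7.23% of control fibroblast UMIs. TMM scaling adds 0.20 to log2 ratios of CPM. In a simulation on 13301 genes, 61% of 4-fold and 81% of 16-fold changes were found, with 9 false among 151 calls. It changed 100 genes at each size. Its graft counts were drawn from control means with the same fitted spread as the controls, so the false count rests on that assumption. Within the graft, immune cells had 3 or more UMIs of immune genes, AT2 cells 3% or more SFTPC, mural cells 3 or more UMIs of MYH11 and ACTA2, and endothelial and other epithelial cells 5 or more UMIs of their genes with under 5 of the rule genes. That left 240 mural, 232 endothelial, 8090 AT2 and 2350 other epithelial cells. Shares were taken after thinning each cell to 500 UMIs; every fibroblast reached that depth. Clusters were made with scanpy 1.11.5 and the Leiden method, which gave 21.

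Named genes were the rule genes, LIF and CCL2, the 10 greatest called increases and decreases with 50 CPM or more and no overlap of libraries, up to 4 genes of each list by smallest p and 4 by highest CPM, the 12 highest class ratios among genes with 100 CPM or more, and cytokines with 50 CPM or more; others complete a small count or were chosen after their values were seen, as were CHI3L1, PDGFRA and PTX3. Values of a few listed genes are not reported here. Alternatives were DESeq2 1.42.0, median-ratio (RLE) scaling, no low count filter, leaving out controls, stricter cell rules, thinned sums, genes under 50 kb, cluster classes, and, added after seeing the data, subtraction of AT2 RNA and removal of members rich in SCGB1A1.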

Additional observations from a re-analysis of the deposited data

Results flagged for a closer look

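The CD45-positive graft libraries, which enter no comparison above, each held 1 cell that met the fibroblast rule. The cell of replicate 1 had 54 CCL2 UMIs among 2884, with 0 UMIs of LIF, IL6 and PTPRC, the gene of CD45. The cell of replicate 2 had 220 CCL2 UMIs and 73 IL6 UMIs among 11885, with 2 UMIs each of LIF and HAS1 and 1 of PTPRC, and it also carried immune markers. They stand here because CCL2 and IL6 UMIs appeared in fibroblast-type cells of libraries sorted for leukocytes. With 1 cell per library, no level or share was drawn from them.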

How the results depend on the processing

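No named gene with a call reversed its direction under any alternative, while 12 without a call changed sign under at least 1, among them CCL5, at -0.54 to 1.06, and TAGLN, at a lowest value of -0.54. The counts of 1826 genes higher and 1896 lower in the graft were 1025 and 898 when only genes spanning under 50 kb were tested, where fewer genes were tested, and DESeq2 called 738 lower and 1550 higher; the cause of the DESeq2 difference was not tested. Leaving out 1 control gave 1680 to 2094 genes higher and 1581 to 2374 lower. Median-ratio scaling moved the median of all genes to -0.37 and gave 2017 higher and 1626 lower. Within the graft, the 4-fold rule was met by 76 to 91 genes, where 81 met it as reported. For single genes, 2036 fold changes kept their side of the threshold, 59 gained a call and 40 lost one over all alternatives. Besides the calls named elsewhere, MFAP4 lost its call without control replicate 3 (adjusted p = 0.0639), and CNN1 and HPGD lost theirs with 10 or more rule UMIs (adjusted p = 0.0840 and 0.1201). Calls were also lost for 3 genes of the lists that are not described above, FOSB among genes under 50 kb (adjusted p = 0.0537), WIF1 in cells with the depth of control cells (adjusted p = 0.0513) and ZFP36L1 under 5 alternatives (adjusted p up to 0.0881). Of class ratios, 136 moved beyond their counting interval and 788 did not, 60 of the moves with cluster classes. No paired analysis was possible because the graft group has 1 library and the labels do not say which specimens pair. Depth limits genes under 5.74 CPM in the graft sum, which is 3 counts.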

Other observations

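Some growth factor and prostaglandin genes were called in each direction. In the growth factor list 7 of 33 tested genes (list of 35) were called higher in graft fibroblasts and 7 lower, with a median of -0.57; DESeq2 called 3 lower. GREM1, an antagonist of bone morphogenetic proteins, was at 61.2 CPM in graft fibroblasts, against 2.32, 0.554 and 0.251 CPM in control fibroblasts (log2 fold change 6.83 ± 0.73, adjusted p = 0.000228), while mural cells of the graft had 415 CPM. VEGFA, which acts on endothelium, was at 111 CPM in graft fibroblasts, against 29.4, 36.9 and 29.7 CPM in control fibroblasts (log2 fold change 1.99 ± 0.27, adjusted p = 0.000723). FGF10, a growth factor for epithelium, was at 1.91 CPM in graft fibroblasts, against 24.7, 35.6 and 26.2 CPM in control fibroblasts (log2 fold change -3.71 ± 0.85, adjusted p = 0.0113), a call that DESeq2 did not make (adjusted p = 0.0753).

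In the prostaglandin list 2 of 12 tested genes (list of 14) were called higher in graft fibroblasts and 1 lower, with a median of -0.44, and 2 were called lower without control replicate 1. These shares, like those of the myofibroblast list, lie near the 13.1% called higher and 13.6% called lower over all genes tested, so the counts are not read as results about the lists. PTGS2, the inducible cyclooxygenase, was at 749 CPM in graft fibroblasts, against 262, 207 and 132 CPM in control fibroblasts (log2 fold change 2.11 ± 0.37, adjusted p = 0.00673), and PTGES, prostaglandin E synthase, at 367 CPM in graft fibroblasts, against 54.8, 56.8 and 54.8 CPM in control fibroblasts (log2 fold change 2.93 ± 0.20, adjusted p = 1.56e-05). HPGD, which degrades prostaglandins, had 0 UMIs in graft fibroblasts, which is at least 5.86-fold lower than the control mean against a floor of 3 counts. The call of a decrease was lost without members carrying other markers (adjusted p = 0.128). Among myofibroblast and TGF-beta genes, 4 of 24 tested genes (list of 25) were called higher in graft fibroblasts and 2 lower, with a median of 0.27, and 7 were called higher without control replicate 1. The genes called higher were CNN1 at 4.14, PDGFRB at 2.19, SMAD3 at 2.29 and TGFBR1 at 1.23, and those called lower were FAP and SMAD2, the second at -3.74. Control fibroblasts had higher depth, with medians of 3902, 3546 and 3900 UMIs, against 1397.5 in the graft. The cut at under 3 UMIs of MYH11 and ACTA2 was thus stricter for control cells. Its part in the changes of CNN1, TAGLN and other contractile genes was not tested. FAP, fibroblast activation protein, was at 15.3 CPM in graft fibroblasts, against 74.2, 80.6 and 88.1 CPM in control fibroblasts (log2 fold change -2.20 ± 0.36, adjusted p = 0.002), and TAGLN, a smooth muscle and myofibroblast gene, at 551 CPM in graft fibroblasts, against 611, 488 and 529 CPM in control fibroblasts (log2 fold change 0.22 ± 0.23, adjusted p = 0.48).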
